A study of Homo sapiens with 18 samples.

Results

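Complex I (NADH:ubiquinone oxidoreductase) is the entry enzyme of the mitochondrial respiratory chain. It takes electrons from NADH, passes them along a row of iron-sulfur clusters to ubiquinone and pumps protons across the inner mitochondrial membrane. Its peripheral arm reaches into the matrix and holds the flavin and the clusters, and its membrane arm holds the proton channels. Core subunits are those conserved from bacteria, and accessory subunits surround them. Undifferentiated hESCs draw much of their energy from glycolysis, and cells short of oxygen are known to limit the flow of electrons into the respiratory chain. The genes described here are the nuclear subunit genes whose symbol starts with NDUFA, NDUFB, NDUFC, NDUFS or NDUFV and a number. NDUFA4, NDUFA4L2, assembly factors and pseudogenes were left out of the set. The rule found 35 genes among the 23536 features of the array table, of which 20727 carried a gene name. The subunits encoded by mitochondrial DNA are not analysed here. By place in the enzyme, 6 of the 35 were core subunits of the peripheral arm, 9 accessory subunits of the peripheral arm, 9 accessory subunits of the proximal membrane arm and 11 accessory subunits of the distal membrane arm.

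RNA came from the established human embryonic stem cell (hESC) lines H9, HS360 and HS401, kept in hypoxia (4% O2) or normoxia (21% O2) for 2 h, 24 h or 7 d and measured on exon arrays, which carry probes for the single exons of a gene. Every line was hybridized to a single array in each condition. The 6 groups thus held 3 arrays of 3 different lines each, and a group's spread also holds line differences. All cells, in hypoxia and in normoxia, were cultured without feeder cells on Matrigel in mTeSR1 medium, but came from stock cultures on human foreskin fibroblasts. Plates for 7 d went into the hypoxia incubator a day after seeding, whereas plates for 24 h and 2 h first grew for some days in normoxia, so time points also differ in culture history.

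Of 11 markers of undifferentiated hESCs, 10 or 11 lay above the array median on each of the 18 arrays, and the exception was POU5F1, below the median on 7 arrays. The mean of the 10 fibroblast markers was 8.46 to 9.38 in hypoxia and 8.58 to 8.68 in normoxia at 7 d, and 9.48 to 10.54 over both oxygen levels at 2 h (log2 intensity). As reference for the treatment, 6 genes known to respond to hypoxia (HK2, PFKFB4, PDK1, DDIT4, BHLHE40 and INSIG2) were higher in hypoxia, and their median log2 difference was 1.03 (2 h), 1.31 (24 h) and 1.12 (7 d). These 6 were chosen with earlier results of the same arrays known, so their direction is not independent evidence. On 5 arrays the lower quartile on the log2 scale lay at 5.64 to 5.70, whereas the other 13 had 5.89 to 6.17. Of the 5, HS401 gave both 24 h arrays and the normoxic 2 h array, and H9 the hypoxic arrays of 2 h and 24 h. None of these 5 was a 7 d array.

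The 35 subunit genes lay high on every array. Their median on an array ranged from 8.63 to 9.22 on the log2 scale, at the 83.3rd to 90.6th percentile of all features, and 29 to 32 of the 35 exceeded the array's median. NDUFB11, a membrane arm subunit encoded on the X chromosome, had the highest mean of the set (10.54 over 18 arrays) and NDUFS4, an accessory subunit mutated in Leigh syndrome, the lowest (5.62). Probe sets differ in response, so this order is one of signals and not of transcript numbers. NDUFS4, NDUFB3 and NDUFB6 (mean 6.14 for the last 2) lay below the array median on every array. NDUFV2 (mean 5.66) lay above it on 2 of the 18.

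To show what lies before these genes, the promoter windows given by RefSeq (GRCh38.p14, 250 bases before to 50 after the start) were searched on both strands. Of the 35 genes 31 were matched, all but NDUFB5, NDUFB9, NDUFC2 and NDUFS5. The NRF1 motif, searched as GCGCATGC, stood in 5 of 31 windows (16.1%), against 3.27% of 27305 windows of all genes. The windows of all genes were not matched to the subunit genes for gene type or signal level. NRF1 is a known activator of nuclear genes for the respiratory chain. The YY1 motif, searched as AAGATGGC, stood in 6 windows (19.4%, against 3.03%), in each of them downstream of the start. The ETS motif bound by GABPA, searched as CCGGAAGT, stood in 2 windows (6.45%, against 4.44%). The core of the hypoxia response element, searched as ACGTG, stood in 9 windows (29%, against 21.6%). Variant forms of these motifs were not searched, so the counts can miss sites. A match is a description of letters, and binding was not measured.

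Stretches from 200 to 51 bases before the start are shown for 3 genes, chosen after their values were seen. NDUFA12 and NDUFA6 were among the genes with the largest differences at 7 d, and NDUFS7 is shown because its stretch holds both motifs. Capitals mark the NRF1 motif as searched (GCGCATGC) and the ACGTG core on either strand. The stretches run 5′ to 3′ along the gene at chr12:95003748-95003897 (minus strand), chr22:42090823-42090972 (minus strand) and chr19:1383707-1383856 (plus strand).
NDUFA12: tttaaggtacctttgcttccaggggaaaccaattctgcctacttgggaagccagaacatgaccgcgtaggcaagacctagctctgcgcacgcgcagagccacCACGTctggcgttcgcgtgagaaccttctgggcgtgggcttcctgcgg
NDUFA6: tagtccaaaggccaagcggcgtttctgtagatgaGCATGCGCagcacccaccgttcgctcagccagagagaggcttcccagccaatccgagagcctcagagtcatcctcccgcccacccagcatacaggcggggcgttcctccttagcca
NDUFS7: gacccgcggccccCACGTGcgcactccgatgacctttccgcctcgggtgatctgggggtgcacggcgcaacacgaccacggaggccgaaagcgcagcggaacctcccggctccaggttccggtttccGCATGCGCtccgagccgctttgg
In these stretches NDUFA12 carried the ACGTG core 98 bases before the start and no match to the NRF1 motif as searched (GCGCATGC). Its stretch holds the letters GCGCACGC, and variant forms of the motif were not searched, so absence of an NRF1 site is not shown. NDUFA6 carried the searched NRF1 motif 166 bases before the start and no ACGTG core. NDUFS7 carried both, with the NRF1 motif 73 bases before the start.

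After 7 d, 26 of the 35 subunit genes were lower in hypoxia than in normoxia and 9 were higher, but no single gene passed the test. The median log2 difference of the set was -0.12, against 0.06 for all features and 0.00 for the features above the median level. The share that was lower was 74.3% of the subunit genes, 38.2% of all features and 48.9% of the features above the median level. In all 3 lines 16 subunit genes (45.7%) were lower in hypoxia, against 14.2% of all features. In all 3 lines 2 (5.71%) were higher, against 25% of all features. These shares over the 3 lines were not computed for the features above the median level, among which the subunit genes mostly lie. The largest differences were those of NDUFC2, NDUFA12 and NDUFA6, which in hypoxia stood at 0.67, 0.70 and 0.75 of their normoxic level.

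**Figure D1:**
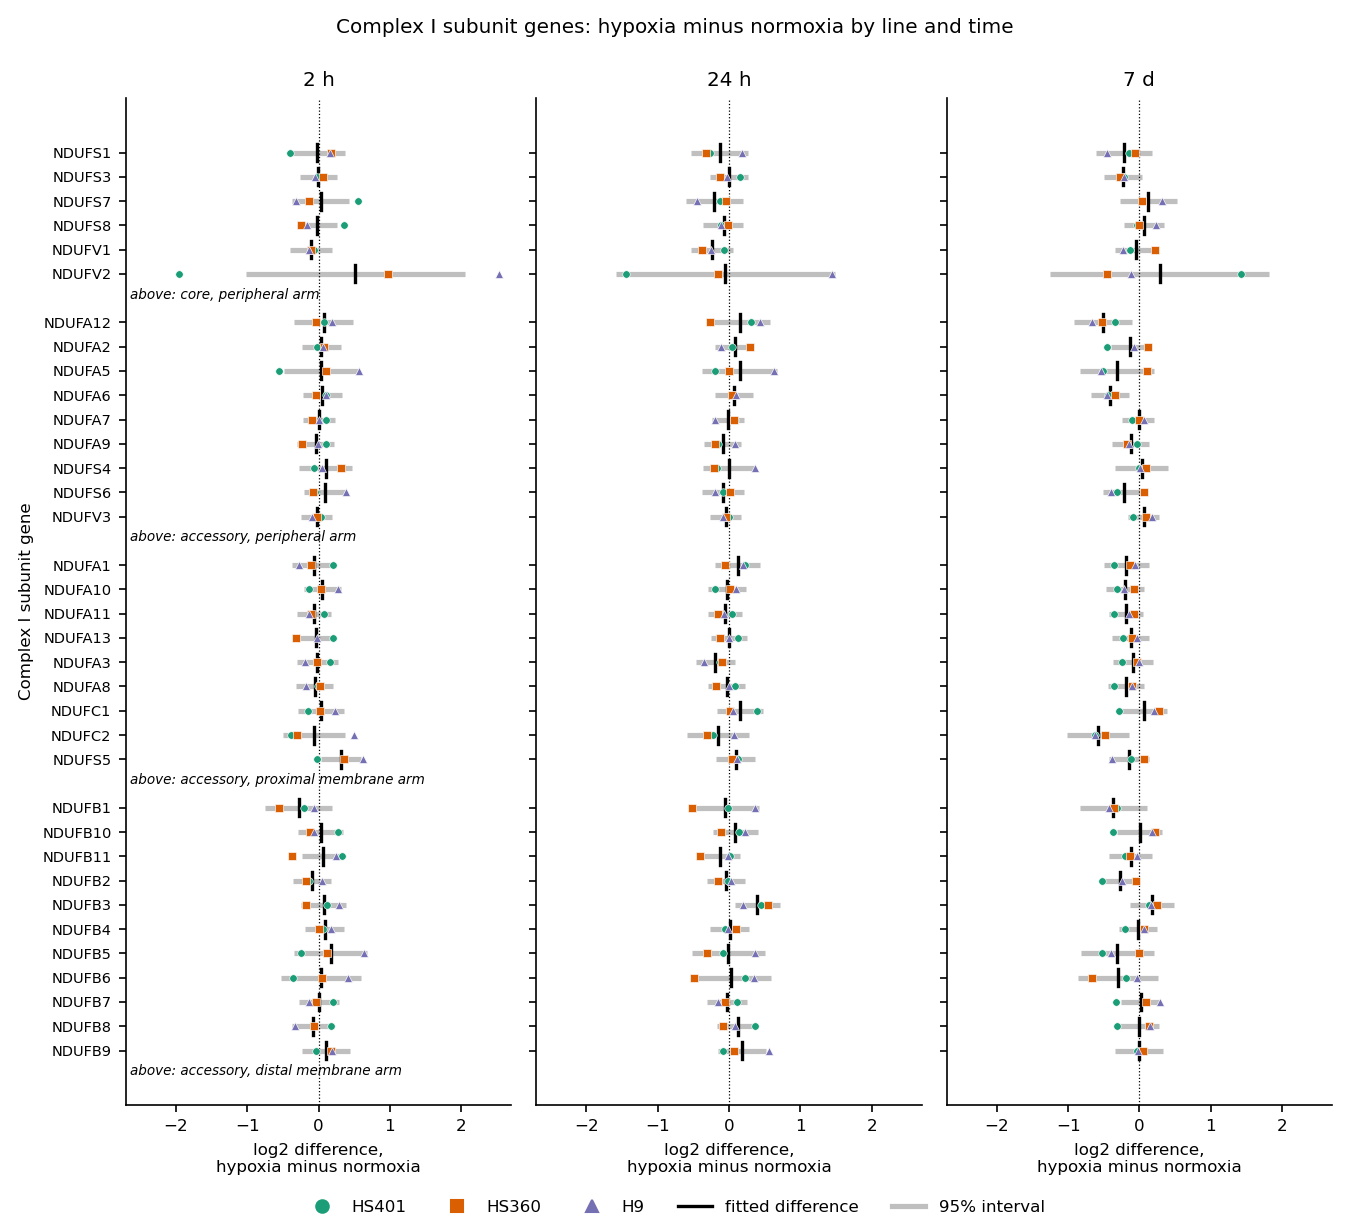
Differences between hypoxia and normoxia of all 35 complex I subunit genes at 2 h, 24 h and 7 d, grouped by place in the enzyme. The x axis gives the log2 difference (hypoxia minus normoxia), points are the 3 lines, black ticks the fitted difference and grey bars its 95% interval; at 7 d 26 of 35 ticks lie left of 0, and the points of NDUFV2 spread most at each time.

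NDUFC2, a small subunit of the proximal membrane arm, had log2 intensities of 8.80, 9.25 and 8.68 in hypoxia and 9.43, 9.73 and 9.31 in normoxia at 7 d (H9, HS360 and HS401 in this order, as in the sentences that follow). Every hypoxic array lay below every normoxic one. The log2 difference was -0.58 (SE 0.204, 95% interval -1.02 to -0.14; limma, adjusted p = 0.533).

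NDUFA12, a peripheral arm subunit related in sequence to the assembly factor NDUFAF2, had 7.69, 8.40 and 8.64 in hypoxia and 8.35, 8.92 and 8.98 in normoxia. Within each line the hypoxic array was the lower one, although the ranges of the groups overlapped. The log2 difference was -0.51 (SE 0.191, 95% interval -0.92 to -0.10; limma, adjusted p = 0.585).

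NDUFA6, a peripheral arm subunit that binds mitochondrial acyl carrier protein, had 8.21, 8.78 and 8.49 in hypoxia and 8.66, 9.12 and 8.93 in normoxia, and was chosen for description after its values were seen because it had the smallest p of the set. Its log2 difference was -0.41 (SE 0.128, 95% interval -0.68 to -0.14; limma, adjusted p = 0.461). As for NDUFA12, each line's hypoxic array lay below its normoxic one and the groups overlapped.

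No subunit gene had an adjusted p under 0.05 at 7 d, where 0.0212% of all features did (5 features), and none passed the thresholds in the study's methods (unadjusted p under 0.01 and fold over 1.5), which 0.867% of all features passed. At an unadjusted p under 0.05, 4 subunit genes were lower in hypoxia (NDUFA6, NDUFC2, NDUFA12 and NDUFB2), against 3.71% of all features. No subunit gene was higher, where 798 of the 23536 features were. Of the 11767 features above the median level, 680 were lower and 408 higher at this p. NDUFB2, of the distal membrane arm, had 8.51, 8.63 and 8.70 in hypoxia and 8.75, 8.68 and 9.22 in normoxia, with most of its difference in HS401. For 26 of the 35 the 95% interval of the difference lay within 1.5-fold in either direction. A p that misses the threshold does not show that hypoxia and normoxia were alike.

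**Figure D2:**
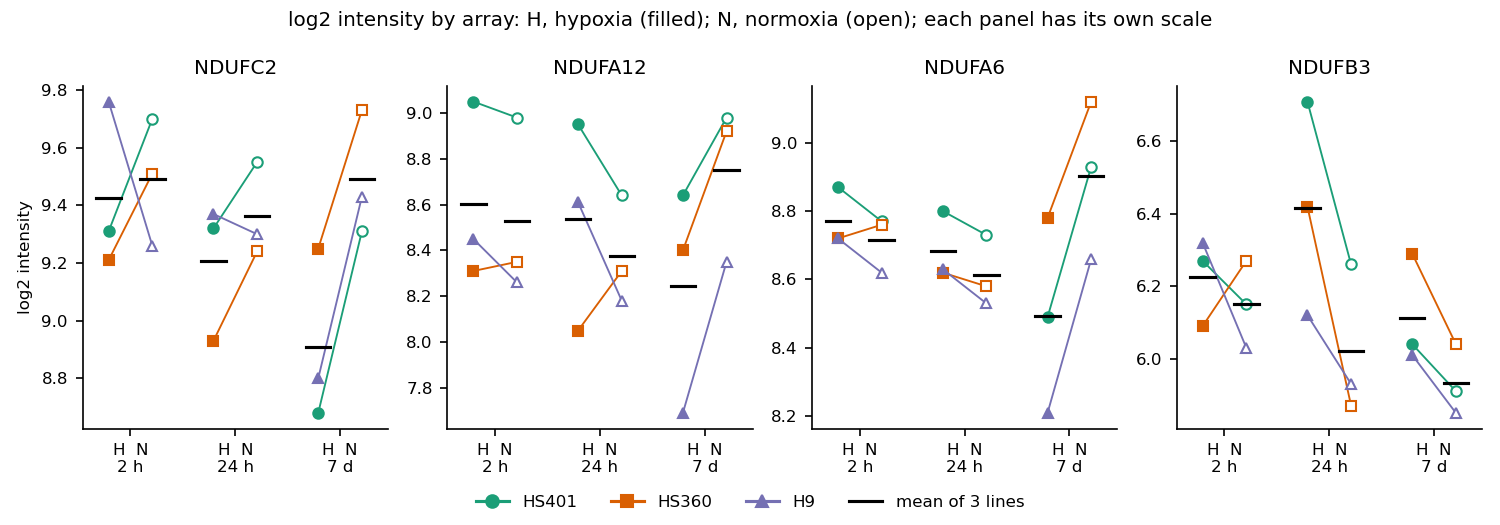
log2 intensity of NDUFC2, NDUFA12, NDUFA6 and NDUFB3 on each of the 18 arrays (y axis, own scale per gene) at 2 h, 24 h and 7 d, with hypoxia filled and left of normoxia (open), lines joining the arrays of a line and bars at the mean of 3 lines. At 7 d NDUFC2 lay at 8.68 to 9.25 in hypoxia and 9.31 to 9.73 in normoxia.

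By place in the enzyme, 8 of 9 accessory subunits of the proximal membrane arm (median log2 difference -0.18), 7 of 9 of the peripheral arm (-0.14) and 8 of 11 of the distal membrane arm (-0.02) were lower in hypoxia at 7 d. The core subunits of the peripheral arm divided evenly, with 3 lower and 3 higher (median 0.01), where 1 of the 3 higher was the dim NDUFV2, at -0.29 without HS401. Among the core subunits, which were chosen for description after their values were seen, NDUFS3 differed by -0.23 (95% interval -0.49 to 0.03) and NDUFS1, which carries iron-sulfur clusters, by -0.22 (-0.61 to 0.17). NDUFS7, which holds the last cluster before ubiquinone, differed by 0.13 (-0.27 to 0.53), NDUFS8 by 0.06 and the NADH-binding subunit NDUFV1 by -0.05. The difference between these groups of subunits was not tested.

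NDUFB3, a distal membrane arm subunit of dim signal, was the gene with the highest difference at 7 d beside NDUFV2. It had 6.01, 6.29 and 6.04 in hypoxia and 5.85, 6.04 and 5.91 in normoxia, higher in hypoxia in each line, with a log2 difference of 0.18 (SE 0.147, 95% interval -0.13 to 0.49; adjusted p = 0.867). NDUFB3 and NDUFS7 were the only subunit genes higher in hypoxia in all 3 lines at 7 d.

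The lines contributed unequally to the 7 d pattern. In HS401, 32 of the 35 genes were lower in hypoxia (median of the pairwise log2 differences -0.24, against -0.02 for all features), in H9 23 (-0.07, against 0.14) and in HS360 19 (-0.01, against 0.05). In the same cultures the fibroblast marker mean was higher in hypoxia in HS401 (9.38 in hypoxia, 8.58 in normoxia) and H9 (9.25 in hypoxia, 8.68 in normoxia), and lower in HS360 (8.46 in hypoxia, 8.66 in normoxia). At 7 d, 9 of the 10 fibroblast markers had a positive difference (median 0.44) and 2 passed the thresholds of the methods. The part of these cells in the complex I result was not tested, and in bulk RNA fewer cells of a type and less RNA per cell cannot be told apart. For the hESC markers, hypoxia minus normoxia of the list mean was 0.03 (HS401), -0.01 (HS360) and -0.13 (H9). All 6 arrays at 7 d had a lower quartile between 5.89 and 6.09, and with this quartile as a covariate the medians at 7 d were -0.11 for the subunit genes, of which 27 were lower, and -0.01 for all features.

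**Figure D3:**
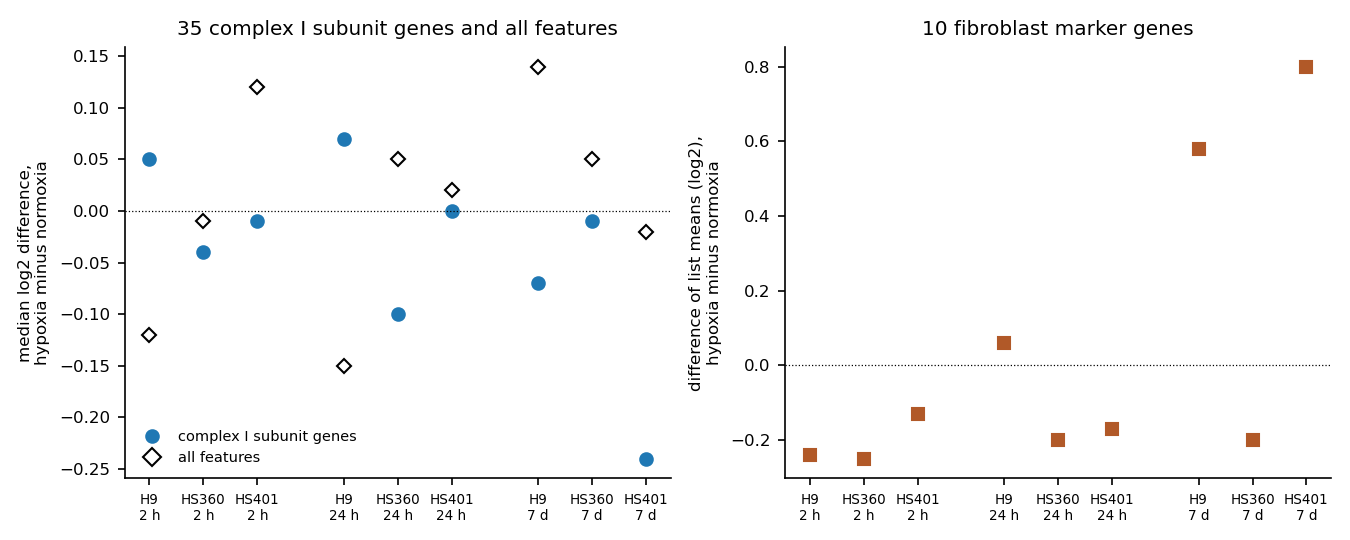
Left, median log2 difference (hypoxia minus normoxia) within each line and time for the 35 complex I subunit genes (filled circles) and all 23536 features (open diamonds); right, the difference of the mean of 10 fibroblast markers in the same pairs. At 7 d the HS401 pair had the lowest subunit median (-0.24) and the highest fibroblast difference (0.80).

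At 2 h the subunit genes showed no common direction. Of the 35, 20 were higher and 15 lower in hypoxia (median log2 difference 0.03, against 0.00 for all features), and no gene had an adjusted p under 0.05, as for all features (0%). None passed the thresholds of the methods, which 0.085% of all features passed, and 30 had a 95% interval within 1.5-fold. At an unadjusted p under 0.05 stood 1 gene, NDUFS5, against 0.782% of all features. NDUFS5, a subunit on the intermembrane face of the membrane arm, had 9.25, 9.19 and 9.14 in hypoxia and 8.63, 8.84 and 9.16 in normoxia (log2 difference 0.32, SE 0.129, 95% interval 0.04 to 0.59; limma, adjusted p = 1). It was higher in hypoxia in H9 and HS360, and HS401 differed by less.

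NDUFB1, a small distal membrane arm subunit, had the lowest difference at 2 h, with 7.66, 7.57 and 7.76 in hypoxia and 7.72, 8.13 and 7.97 in normoxia (log2 difference -0.28, 95% interval -0.75 to 0.19). NDUFV1 followed with 9.56, 9.50 and 9.80 in hypoxia and 9.69, 9.61 and 9.87 in normoxia (-0.10, 95% interval -0.40 to 0.19). These were the 2 subunit genes lower in hypoxia in all 3 lines at 2 h (5.71%, against 6.17% of all features), and NDUFB4 was the only one higher in all 3 (2.86%, against 6.01%).

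NDUFV2, a core subunit with an iron-sulfur cluster, had the highest difference at 2 h and at 7 d, but its spread was larger than any effect. At 2 h it had 7.23, 5.19 and 5.09 in hypoxia and 4.70, 4.22 and 7.05 in normoxia (log2 difference 0.51, SE 0.715, 95% interval -1.02 to 2.05). Without H9 the difference was -0.49. At 7 d it had 5.69, 5.31 and 6.06 in hypoxia and 5.81, 5.76 and 4.64 in normoxia (0.28, 95% interval -1.25 to 1.82), and -0.29 without HS401. NDUFV2 stood at 6.01 to 7.46 on the 5 arrays of low lower quartile and at 4.22 to 6.06 on the other 13. These ranges overlapped slightly. Some other subunit genes divided along these arrays without overlap. NDUFA5 had 8.17 to 8.38 on the 5 arrays and 7.10 to 8.10 on the others, and NDUFS1 had 9.37 to 9.63 and 8.52 to 9.30. In the opposite direction, NDUFA3 had 9.68 to 9.94 on the 5 arrays and 9.97 to 10.41 on the others, NDUFB7 8.29 to 8.45 and 8.46 to 8.86, and NDUFS7 7.86 to 8.02 and 8.21 to 8.62. Among all features 414 were higher and 4499 lower on each of the 5 arrays than on any other. What sets these arrays apart was not tested.

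At 24 h 13 subunit genes were higher and 20 lower in hypoxia, and 2 were equal (median log2 difference -0.01, against -0.03 for all features). None had an adjusted p under 0.05 (0.00425% of all features) or passed the thresholds of the methods (0.421%), and 29 had a 95% interval within 1.5-fold. At an unadjusted p under 0.05 stood NDUFB3 alone, against 2.7% of all features. NDUFB3 had 6.12, 6.42 and 6.71 in hypoxia and 5.93, 5.87 and 6.26 in normoxia, higher in hypoxia in each line (log2 difference 0.40, SE 0.147, 95% interval 0.08 to 0.71; limma, adjusted p = 1). NDUFB9, a distal membrane arm subunit, had 9.95, 9.48 and 9.65 in hypoxia and 9.39, 9.41 and 9.73 in normoxia (0.18, 95% interval -0.15 to 0.52). Its difference was -0.01 without H9.

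The lowest differences at 24 h were those of NDUFV1 and NDUFS7. NDUFV1 had 9.65, 9.13 and 9.58 in hypoxia and 9.90, 9.51 and 9.65 in normoxia (log2 difference -0.23, 95% interval -0.53 to 0.06). NDUFS7 had 7.86, 8.42 and 7.89 in hypoxia and 8.31, 8.46 and 8.02 in normoxia (-0.21, 95% interval -0.61 to 0.19), and 3 of these 6 arrays were of low lower quartile. Without the 5 such arrays its difference was 0.03. Both genes were lower in hypoxia in all 3 lines, as were NDUFA3 and NDUFS8. NDUFA6, NDUFB3, NDUFC1 and NDUFS5 were higher in all 3, and both counts of 4 (11.4%) stand beside 8.74% higher and 9.65% lower among all features. Without the 5 arrays the median of the set at 24 h was -0.15, a value in which HS360 gave the only hypoxic array.

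Over the mean of the 3 times, 26 subunit genes were lower and 9 higher in hypoxia, with a median log2 difference of -0.05 (0.00 for all features) and 34 intervals within 1.5-fold. Without the 5 arrays of low lower quartile this median was -0.13. None had an adjusted p under 0.05, against 0.11% of all features. NDUFC2 (-0.27, 95% interval -0.52 to -0.01) and NDUFB3 (0.22, 0.04 to 0.40) had an unadjusted p under 0.05, a count of 2 that stands beside 4.3% of all features. The oxygen effect itself was compared between times. It was lower at 7 d than at 24 h for 25 genes and than at 2 h for 27, with medians of -0.13 and -0.12, against 0.08 and 0.05 for all features. None of these differences passed an adjusted p under 0.05, as for all features between 7 d and 24 h, 7 d and 2 h, and 24 h and 2 h (0% each), and these comparisons share the 7 d arrays. For NDUFA6 the oxygen effect at 7 d minus that at 24 h was -0.48 (95% interval -0.87 to -0.09; limma, adjusted p = 0.901), and for NDUFA12 -0.67 (-1.25 to -0.09; limma, adjusted p = 0.901).

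Between 7 d and 2 h, most subunit genes at a small unadjusted p were lower at 7 d in hypoxia and higher at 7 d in normoxia. In hypoxia 8 subunit genes were lower at 7 d than at 2 h at an unadjusted p under 0.05 (8.27% of all features were) and 1 was higher (10.7%). The 8 were NDUFA8, NDUFC2, NDUFA10, NDUFA9, NDUFS1, NDUFS3, NDUFA5 and NDUFA6, with log2 differences of -0.28 to -0.55, and the median of the set was -0.10, against 0.13 for all features. Among the 11767 features above the median level, 1568 were lower and 1379 higher at this p in hypoxia, with a median of 0.043. In normoxia 7 subunit genes were higher at 7 d (6.28%) and none was lower. They were NDUFA7, NDUFB11, NDUFA2, NDUFA13, NDUFS5, NDUFA3 and NDUFA1, with log2 differences of 0.29 to 0.38 and a set median of 0.10, against 0.06. Of the features above the median level, 915 were higher and 790 lower at this p in normoxia, with a median of 0.037. Of all 23536 features, 1130 were lower. NDUFA7, a peripheral arm subunit chosen for description after its values were seen, was the gene higher at 7 d in both, with 9.68, 9.56 and 9.66 at 7 d against 9.32, 9.17 and 9.54 at 2 h in hypoxia, and 9.62, 9.56 and 9.76 at 7 d against 9.32, 9.26 and 9.44 at 2 h in normoxia. Its log2 differences were 0.29 (SE 0.105, adjusted p = 0.148) and 0.31 (SE 0.105, adjusted p = 0.219).

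No subunit gene passed an adjusted p under 0.05 at 7 d against 2 h, in hypoxia (3.23% of all features did) or in normoxia (1.21%), or the thresholds of the methods (4.27% and 2.62%). At 24 h against 2 h no subunit gene and no feature (0%) had an adjusted p under 0.05 in hypoxia or in normoxia. The fibroblast markers were lower at 7 d than at 2 h for 10 of 10 genes in both oxygen levels, with medians of -0.85 in hypoxia and -1.51 in normoxia. Their part in the change of the subunit genes with time was not tested. The arrays at 2 h include 2 of low lower quartile, and NDUFS1, NDUFA5 and NDUFA3, named here, divided along those arrays.

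The largest differences in the set were between the lines. Over its 6 arrays HS401 had the higher level of 5 subunit genes against H9 and of 8 against HS360, and HS360 of 1 gene against H9, at an adjusted p under 0.05, and none was lower. Among all features, 4.9% (HS401 against H9), 7.66% (HS401 against HS360) and 1.07% (HS360 against H9) were called higher. In the same order, 1224, 1345 and 535 of the 23536 features were called lower. The median log2 difference of the set was 0.16 for HS401 against H9 (all features -0.04), 0.12 for HS401 against HS360 (-0.12) and 0.05 for HS360 against H9 (0.08). Among the 11767 features above the median level, 711, 1329 and 134 were called higher, in the same order. Their medians were -0.023, -0.017 and -0.017. With each line cultured once per condition, these tests measure the spread between arrays of a line, not between independent derivations. HS401 held 3 of the 5 arrays of low lower quartile, H9 2 and HS360 none.

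**Figure D4:**
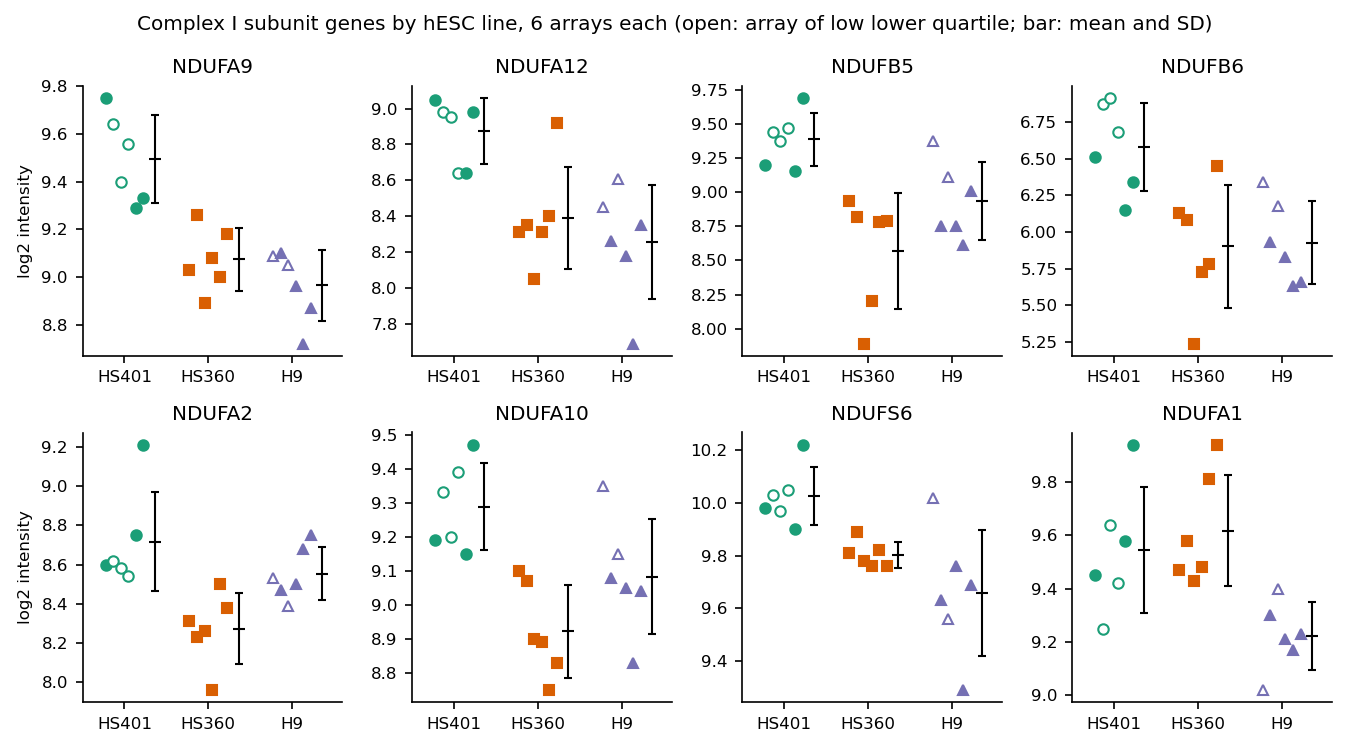
log2 intensity (y axis, own scale per gene) of 8 complex I subunit genes on the 6 arrays of HS401, HS360 and H9, left to right within a line 2 h, 24 h and 7 d with hypoxia before normoxia; open symbols are the 5 arrays of low lower quartile and bars the mean and SD. NDUFA9 lay at 9.29 to 9.75 in HS401, above every array of HS360 and H9.

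NDUFA9, which lies at the junction of the arms near the ubiquinone site, separated HS401 from both other lines. Its lowest, median and highest log2 intensities were 9.29, 9.48 and 9.75 in HS401, 8.89, 9.06 and 9.26 in HS360, and 8.72, 9.01 and 9.10 in H9. The HS401 range did not overlap with either. The log2 difference was 0.53 against H9 (SE 0.086, adjusted p = 0.00108) and 0.42 against HS360 (SE 0.086, adjusted p = 0.00567). Without the 5 arrays of low lower quartile it was 0.58 (adjusted p = 0.0366) against H9 and 0.40 against HS360, past the threshold for H9 and not for HS360.

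NDUFA12 had 8.64, 8.97 and 9.05 in HS401, 8.05, 8.33 and 8.92 in HS360, and 7.69, 8.31 and 8.61 in H9. HS401 lay above every H9 array and overlapped with HS360, in which only the normoxic 7 d array was near its level. The log2 difference was 0.62 against H9 (SE 0.135, adjusted p = 0.00890) and 0.48 against HS360 (SE 0.135, adjusted p = 0.0313), and without the 5 arrays 0.76 (adjusted p = 0.0386) against H9 and 0.42 against HS360, where the call was lost.

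NDUFB5 and NDUFB6, of the distal membrane arm, had the largest line differences after NDUFV2. NDUFB5 had 9.16, 9.41 and 9.69 in HS401, 7.89, 8.79 and 8.94 in HS360, and 8.61, 8.88 and 9.38 in H9, without overlap between HS401 and HS360 (log2 difference 0.82, SE 0.168, adjusted p = 0.00586). NDUFB6, of dim signal, had 6.15, 6.60 and 6.91 in HS401, 5.24, 5.93 and 6.45 in HS360, and 5.63, 5.88 and 6.34 in H9. Its log2 difference was 0.68 against HS360 (adjusted p = 0.0283) and 0.65 against H9 (adjusted p = 0.0378). Without the 5 arrays the difference of NDUFB5 was 0.56, and those of NDUFB6 were 0.28 against HS360 and 0.52 against H9, none past the threshold. NDUFV2 differed by 1.03 between HS401 and HS360 (95% interval -0.05 to 2.11) and by 0.16 between HS401 and H9 (-0.92 to 1.24).

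The other genes called between lines, named after their values were seen, differed by less. Higher in HS401 than in H9 were also NDUFS6, a zinc-binding subunit (0.37, adjusted p = 0.0250), and NDUFA8 (0.30, adjusted p = 0.0355). Higher in HS401 than in HS360 were also NDUFA2, a subunit with a thioredoxin-like fold (0.44, adjusted p = 0.00500), NDUFA10, a relative of nucleoside kinases (0.37, adjusted p = 0.0150), NDUFV1 (0.32, adjusted p = 0.0406) and NDUFS1 (0.43, adjusted p = 0.0419). NDUFA1, a small membrane subunit encoded on the X chromosome, had 9.43, 9.53 and 9.94 in HS360 and 9.02, 9.22 and 9.40 in H9 (0.40, SE 0.103, adjusted p = 0.0498), without overlap. Past the thresholds of the methods stood 2 genes against H9 and 2 against HS360 for HS401 (2.36% and 3.34% of all features) and none for HS360 against H9 (0.909%).

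Without the 5 arrays of low lower quartile, 2 genes stayed past the adjusted p for HS401 against H9 (NDUFA9 and NDUFA12), 0 for HS401 against HS360 and 0 for HS360 against H9. With the other line left out of the fit, 3, 3 and 0 were called. With that quartile fitted as a covariate, 9, 5 and 2 were. The difference of the oxygen effect between lines, over the 3 times, was called for no subunit gene and for 0% of all features (smallest adjusted p = 0.999), and 0 subunit genes had an unadjusted p under 0.05 (374 of all features did).

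Related lists gave the surroundings of complex I. Of 16 complex I assembly factors, 9 were lower and 7 higher in hypoxia at 7 d (median log2 difference -0.05), and 5 were lower at an unadjusted p under 0.05 (3.71% of all features were). NDUFAF1, which acts early in building the membrane arm, differed by -0.69 on the log2 scale (SE 0.194; limma, adjusted p = 0.413) and passed the thresholds of the methods, as 0.867% of all features did. NDUFAF5 (-0.48, adjusted p = 0.413), ACAD9 (-0.42, adjusted p = 0.446), TIMMDC1 (-0.41, adjusted p = 0.651) and COA1 (-0.34, adjusted p = 0.592) were the others, named after their values were seen. ACAD9, TIMMDC1 and COA1 are known to act together with NDUFAF1 in 1 assembly complex. In the same comparison TMEM186, also of that complex, differed by 0.13. ECSIT and TMEM126B, which belong to that complex too, differed by 0.09 and -0.35. A joint change of the complex was not tested. In hypoxia at 7 d against 2 h, ACAD9 (-0.68, adjusted p = 0.0128) and TIMMDC1 (-0.73, adjusted p = 0.0347) fell and TMEM186, of the same complex, rose (0.70, adjusted p = 0.0233), whereas NDUFAF1 differed by -0.69 (adjusted p = 0.0665).

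Of the NDUF genes outside the set, NDUFA4, now assigned to complex IV, differed by 0.16, -0.06 and -0.32 at 2 h, 24 h and 7 d (adjusted p = 0.879 at 7 d). NDUFA4L2, its relative known as a HIF1 target that restrains complex I, differed by 0.08, 0.34 and 0.38 (over the mean of the times 0.27, SE 0.105; limma, adjusted p = 0.971). NDUFAB1, the acyl carrier protein, differed by -0.04, 0.09 and 0.08.

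Among the other respiratory chain lists at 7 d, 12 of 15 ATP synthase genes (median log2 difference -0.12), 6 of 8 of complex III with cytochrome c (-0.02), 6 of 11 of complex IV (-0.04) and 1 of 3 of complex II (0.04) were lower in hypoxia. None of these genes passed an adjusted p under 0.05 or the thresholds of the methods. UQCR10, a complex III subunit, differed by -0.33 (limma, adjusted p = 0.493). Of 11 iron-sulfur cluster assembly genes 7 were lower (median -0.06). Of 11 regulators of respiratory chain genes 5 were lower (median 0.02), and TFAM, which packages mitochondrial DNA, differed by -0.30 (adjusted p = 0.782), NRF1 by 0.03, GABPA by 0.03 and YY1 by -0.003. UQCR10 and these regulators were chosen for naming after their values were seen. Whether any list differs from complex I was not tested.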

How the data were processed

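The deposited table held 1 intensity per gene and array on the linear scale. The authors had made these intensity values with RMA, which corrects background, makes arrays alike by quantiles and summarizes probes, on probes re-assigned to Entrez genes by a custom CDF; versions and the genome build are not given in the sources used here. Their log2 values, which lie on steps of 0.01, were analysed. Each of the 23536 features was tested, and 20727 were named through the platform table with symbols updated from RefSeq. All value columns matched a sample (unmapped columns 0). Median intensities were 131.6 to 160.9. For arrays, their number limits the precision, and detection calls were not analysed here.

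All 18 arrays were fitted in R 4.3.3 with limma 3.58.1, using a mean for each group and the line as a fixed block (10 residual and 4.24 prior degrees of freedom). The methods name limma and no block; the line was used since the same 3 lines stand in each group and 8 of 9 pairs of arrays of a line and time correlated above 0.1 after removal of group means (-0.00534 to 0.776). P-values were two-sided and adjusted over all features by Benjamini-Hochberg at 0.05, and the methods' thresholds (unadjusted p under 0.01, fold over 1.5) were applied beside. Intervals are at 95%. The labels name no separate cultures within a line. The fit was tested on simulated data. Promoters were read with Python 3.11.15.

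Members and lists were chosen with earlier results of these data known. The genes named are those past a threshold, the 2 highest and 2 lowest differences at each time, the highest and lowest mean level, and up to 4 with the largest line difference; others are marked as chosen after their values were seen. Alternatives were no block, a random block, the 9 pairs (line by time) as blocks, the arrays of the time alone, a second quantile normalization, centring arrays, only bright or only named features, eBayes with trend and robust, the lower quartile as a covariate, and leaving out the 5 arrays or each line. Leaving out the 4 dim members was added after seeing the data.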

Additional observations from a re-analysis of the deposited data

Results flagged for a closer look

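The 6 arrays of a line were examined for 1 array far from the others in 60 sets of a named gene and line, and 3 sets stood out. The gap to the next array, as a share of the whole range, was set against Dixon's 95% limit for 6 arrays. That limit is meant for 6 like arrays, which pass it by chance in about 1 set in 20. In H9, NDUFA6 was 8.21 on the hypoxic 7 d array, against 8.53 to 8.72 on the other 5 (share 0.627). In HS360, NDUFA6 was 9.12 on the normoxic 7 d array, against 8.58 to 8.78 (share 0.63). In HS401, NDUFA2 was 9.21 on the normoxic 7 d array, against 8.54 to 8.75 (share 0.687). All 3 were 7 d arrays, and NDUFA6 had been named for its p at 7 d. The 6 arrays of a line differ in oxygen and time, and the genes were named for their values. The count of 3 in 60 can therefore not be compared with the rate of 1 in 20.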

How the results depend on the processing

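No oxygen or time contrast had a subunit gene past an adjusted p under 0.05 under any alternative that was run. Counts past the methods' thresholds stayed at 0 except for 1 gene at 2 h without HS401 (0 to 1 with a line left out), 2 for hypoxia at 24 h against 2 h without the 5 arrays of low lower quartile, 0 to 2 for hypoxia at 7 d against 2 h with a line left out, and 1 for the oxygen effect at 7 d against 24 h with pairs of line and time as a replicate block, and 0 to 1 for it with a line left out. With no replicate block the median log2 difference at 7 d was -0.123, as in the fit with the block, and leaving out the block changed no call. Across all alternatives that median ranged from -0.167 (arrays centred) to -0.094 (second quantile normalization).

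Without the 5 arrays the medians were -0.153 at 24 h and -0.132 over the mean of the times; the lone hypoxic array at 24 h was assumed to vary like the other groups. Calls between lines for HS401 against H9, HS401 against HS360 and HS360 against H9 were 2, 0 and 0 without the 5 arrays, 9, 5 and 2 with the lower quartile as a covariate, and 3, 3 and 0 with the other line left out. By the methods' thresholds HS401 had 1 gene against H9 and 0 against HS360 without the 5 arrays, 0 and 0 with the covariate and 1 and 1 with only bright features, and 1 against H9 after a second quantile normalization. The cause was not tested, but fewer arrays were fitted without the 5 arrays or with a line left out. Signs reversed for NDUFB9 at 24 h (-0.01 without H9, -0.03 without the 5 arrays; -0.01 to 0.31 with a line left out), NDUFS7 at 24 h (0.03 without the 5 arrays) and NDUFV2 (-0.49 at 2 h without H9, range -0.49 to 1.75; -0.29 at 7 d without HS401, range -0.29 to 0.65). Values of NDUFS4, NDUFV2, NDUFB3 and NDUFB6 rest on dim signals; without these 4, an alternative added after seeing the data, the medians were -0.137 at 7 d and -0.027 at 24 h.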
